A study of Mus musculus with 48 samples.

Results

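The effect of a hindlimb cast on the tibia of C57BL/6J mice was measured in 6 RNA-seq libraries, 1 from each tibial metaphysis of 3 mice. C57BL/6J is the inbred strain from which the mouse reference genome derives. The libraries were chosen by strain, limb and mouse number from 48 libraries of 8 inbred strains, and all genes that passed the filter on low counts were described, 16882 of the 32544 gene rows. The immobilized group was the left tibia of mice 1, 4 and 6 after 3 weeks in a cast, and the control group was the right tibia of the same 3 mice, which had no cast. All mice of the series were males aged 19 weeks, and the labels give no engineered allele and no drug for any group. The cast was always on the left, so its effect and that of side cannot be told apart. The control limb belonged to an animal that carried a cast on its other leg. The other 7 strains (A/J, 129S1/SvImJ, WSB/EiJ, PWK/PhJ, CAST/EiJ, NZO/HlLtJ and NOD/ShiLtJ) had the same limbs sampled. Of their mice 19, 1 of them A/J, served to test whether an effect differed from theirs. These mice also served to estimate the spread, except the A/J mouse, whose single pair left no residual.

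The metaphysis is the flared, trabecular end of a long bone below the growth plate, and its spaces are filled with blood-forming marrow. Osteoclasts, multinucleated cells of the myeloid lineage, acidify and digest bone, osteoblasts lay down its collagen and mineral, and osteocytes buried in the matrix sense load. Loss of loading is known to shift trabecular bone towards resorption, and cells of the periosteum and other fibrous tissue around bone make collagens, small proteoglycans and matricellular proteins.

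The 6 libraries held between 6294157 and 9954067 counts. Marrow and bone were both present in all of them, with summed levels of 31040 to 67480 counts per 1000000 (CPM) for the erythroid list, 34890 to 62690 CPM for the neutrophil list and 22070 to 81210 CPM for the osteoblast list. The library of immobilized mouse 4 stood apart. It lay at 55.2 on the leading principal component, against -26.9 to 16.8 for the other 5 libraries, and its osteoblast list summed to 81210 CPM against 22070 to 37870 CPM elsewhere. Skeletal muscle genes, which mark muscle taken along with the bone, summed to 917, 2811 and 1629 CPM in the immobilized tibiae of mice 1, 4 and 6 and to 1990, 191 and 1195 CPM in their control tibiae. The difference therefore had opposite signs in mice 1 and 4. Of the variance of log2 CPM over the 6 libraries, 43.8% lay between mice, 23.9% between limbs and 32.3% in the residual. Across genes, the log2 differences of mouse 1 correlated with those of mouse 4 at r = 0.03 and with those of mouse 6 at 0.169, and those of mice 4 and 6 at 0.194. Genes are not independent replicates, so these values describe the 3 mice only.

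In these 3 mice, genes of the bone-resorbing machinery stood higher in the immobilized tibia, among them Ctsk, Acp5, Dcstamp and Ocstamp, and so did genes of fibrous matrix such as Postn, Thbs2, Ogn and the collagen VI genes, and a cluster of stefin A protease inhibitors. Most cell cycle and interferon-stimulated genes had values slightly lower in the immobilized tibia. The edgeR test of the 6 libraries called 0 of 20 and 1 of 22, against 0.167% of all genes called lower. DESeq2 called 2 and 0 of them in the same libraries. How many genes passed a test depended on how the spread was estimated. A joint fit of 44 libraries from 22 mice took the spread of the limb difference from the mice of all strains except A/J. At a false discovery rate (FDR) of 5% it called 1 gene, the pseudogene Gm28438, which is 0.00592% of the genes tested. At an unadjusted p of 0.05 that fit passed 823 genes, or 4.88%, and the lowest adjusted p outside Gm28438 was 0.17. A fit of only the 6 C57BL/6J libraries called 142 of 13798 genes (1.03%), 119 higher (0.862%) and 23 lower (0.167%).

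Several measurements bear on how far the 142 calls can be read. The median standard error (SE) of a log2 difference was 0.142 in the 6-library fit, with 2 residual degrees of freedom, and 0.222 in the all-strain fit, with 14. Without mouse 6, 2 genes were called, and Gm28438 was the only one of the 142 among them. Without the pairing by mouse, 1 gene was called, Thbs2, and without the filter on low counts 608 were. Without mouse 4 there were 216 calls and without mouse 1 there were 143, which shared 110 and 78 genes with the 142. Below, "called" without further words refers to the 6-library fit, whose calls all have an adjusted p above 0.05 in the all-strain fit except Gm28438. The p-values are those of edgeR's quasi-likelihood test. It sets a difference against the spread between the mice of the fit used, estimated partly across genes. They are therefore no measure of the spread of these 3 mice alone. The calls were chosen on these 6 libraries, so the next counts describe them and support nothing. Of the 142 genes, 97 (68.3%) had an unadjusted p under 0.05 in the all-strain fit. The limbs did not overlap in 108 of the 119 higher genes (90.8%) and in 18 of the 23 lower genes (78.3%), and over all genes tested such gaps were found upward in 9.19% and downward in 6.35%.

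The osteoclast genes that were called include the main proteases and the fusion factors of the cell. Ctsk, encoding cathepsin K, the protease that cleaves bone collagen in the resorption pit, stood at 1291, 2565 and 1795 CPM in the immobilized tibiae of mice 1, 4 and 6 and at 420.3, 959 and 592 CPM in their control tibiae. Every immobilized value lay above every control value, and mouse 4 was highest in both limbs. The log2 difference was 1.53 ± 0.11 (SE, n = 3 mice, adjusted p = 0.000127, 6-library fit) and 1.55 ± 0.55 in the all-strain fit, where the unadjusted p was 0.0111. Acp5, encoding tartrate-resistant acid phosphatase, stood at 1232, 1873 and 1375 CPM in immobilized tibiae and at 538, 961 and 744 CPM in control tibiae, again without overlap (1.01 ± 0.45 in the all-strain fit; adjusted p = 0.00163 in the 6-library fit). Mmp9, encoding the gelatinase that osteoclasts and neutrophils both make, had 1918, 2341 and 2282 CPM in immobilized tibiae and 1148, 1440 and 1567 CPM in control tibiae (0.65 ± 0.11, adjusted p = 0.023). Its groups did not overlap either.

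Dcstamp and Ocstamp encode the membrane proteins needed for osteoclast precursors to fuse. Dcstamp had 22.04, 37.9 and 28 CPM in immobilized tibiae and 9.21, 15.6 and 8.88 CPM in control tibiae (1.38 ± 0.15, adjusted p = 0.00181). Ocstamp had 21.8, 24.6 and 19.1 CPM in immobilized tibiae and 7.96, 9.03 and 10.5 CPM in control tibiae (1.24 ± 0.18, adjusted p = 0.0111). Both were higher in every mouse and neither overlapped between limbs. Mmp14, a membrane-bound collagenase also made by stromal cells, and Atp6v0d2, a proton pump subunit found in osteoclasts, were called as well, at 0.98 ± 0.12 and 0.69 ± 0.10, and the groups of Atp6v0d2 overlapped.

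Of the 17 members of the osteoclast list tested, 7 were called, all higher, against 0.862% of all genes. Without overlap, 10 members were higher, against 9.19% of all genes, and 13 were higher in all 3 mice, against 19% of all genes. The median log2 difference of the list was 0.582 in the all-strain fit, against 0.011 over all genes tested, and the medians of mice 1, 4 and 6 were 0.606, 0.669 and 0.542. All 7 calls were kept without mouse 4, 6 without mouse 1, where Mmp9 was lost, and none without mouse 6. The remaining members had smaller differences or none. The proton pump subunit Tcirg1 had a log2 difference of 0.36 ± 0.22, the transcription factor Nfatc1 0.35 ± 0.20 and the chloride exchanger Clcn7 0.34 ± 0.16 in the all-strain fit, each without overlap between limbs and not called. Car2, the carbonic anhydrase that supplies protons, stood at 962, 590 and 509 CPM in immobilized tibiae and at 1184, 646 and 540 CPM in control tibiae. It is also abundant in erythroid cells, and it was lower in all 3 mice without being called. Calcr, the calcitonin receptor, stood between 2.38 and 3.06 CPM in every library. In bulk tissue, more osteoclasts and more RNA per osteoclast cannot be told apart.

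**Figure D1:**
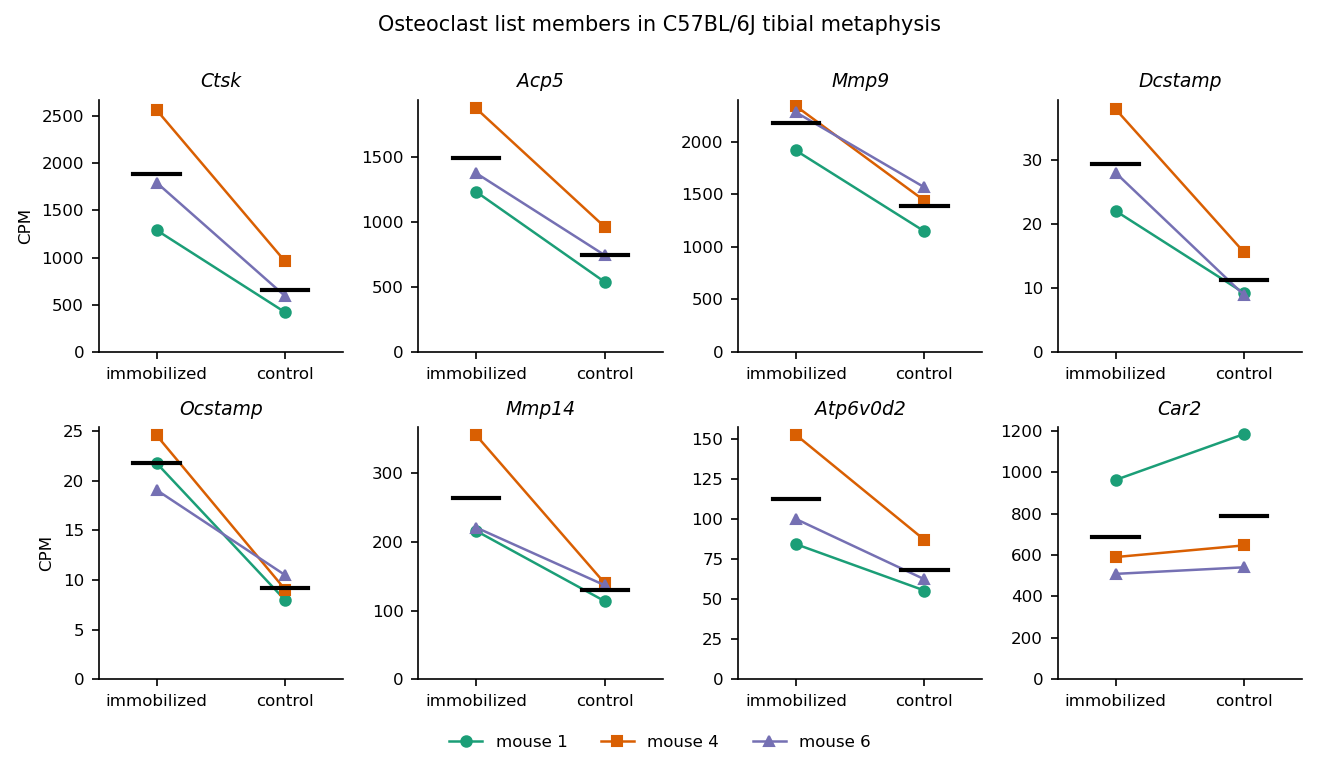
CPM (linear axis from 0) of 8 members of the osteoclast list in the immobilized (left) and control (right) tibia. Lines join the limbs of mouse 1, 4 and 6, and black bars are means of 3 mice. Ctsk lies between 1291 and 2565 CPM in immobilized limbs and between 420.3 and 959 CPM in control limbs, while Car2 runs slightly the other way.

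Outside the list, 6 further calls were of genes known from osteoclasts or their lysosomes, a grouping made after their values were seen. Cd109, a membrane-anchored protein that binds TGF-beta, had 112, 231 and 129 CPM in immobilized tibiae and 43.4, 92.4 and 50.3 CPM in control tibiae (adjusted p = 0.000127). Ckb, the creatine kinase of osteoclasts and brain, had 211, 385 and 266 CPM in immobilized tibiae and 103, 190.4 and 114 CPM in control tibiae (1.08 ± 0.10, adjusted p = 0.000546). In both genes mouse 4 was highest in each limb and the limbs did not overlap. Itgav, the partner chain of the osteoclast integrin, Slc9b2, a sodium and proton exchanger, and the lysosomal proteins Gpr137b and Slc37a2 had log2 differences of 0.85, 1.09, 0.93 and 0.82. All 6 were kept without mouse 1 and without mouse 4, and none without mouse 6.

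None of the regulators of osteoclast formation was called by edgeR or DESeq2 in the 6-library fit, and 2 had an unadjusted p under 0.05. Tnfsf11, encoding the ligand RANKL that drives osteoclast formation, stood at 10.3, 7.67 and 10.99 CPM in immobilized tibiae and at 8.27, 4.14 and 8.002 CPM in control tibiae. It was higher in all 3 mice, the limbs overlapped, and the difference of 0.54 ± 0.38 (all-strain fit, unadjusted p = 0.175) did not pass. Tnfrsf11b, encoding its decoy receptor osteoprotegerin, had 8.76, 10.5 and 7.54 CPM in immobilized tibiae and 14.2, 8.15 and 6.40 CPM in control tibiae, higher in mice 4 and 6 and lower in mouse 1. Of the osteoclast regulator list, 9 members were tested in the 6-library fit, and the median log2 difference over the 11 members in the all-strain fit was 0.06.

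Stefin A genes encode small inhibitors of cysteine proteases, and in mice they form a family of near copies that are active in myeloid cells. The 6 described here, grouped after their values were seen, are Stfa1, Stfa2, Stfa2l1, Stfa3, BC100530 and Gm5483. They were tested in both fits and lie together on chromosome 16 (GRCm38, chr16:36156811-36455392). All 6 were called higher, with log2 differences of 1.01 to 1.9, against 0.862% of all genes called higher. They were picked among the calls, so their counts are a description. The family members BC117090, Csta1 and Gm5416 were not among the calls. Their summed level was 224, 208 and 382 CPM in the immobilized tibiae of mice 1, 4 and 6 and 97.2, 89.3 and 144 CPM in their control tibiae. No gene of the 6 overlapped between limbs, against 9.19% of all genes higher without overlap, and immobilized mouse 6 held the highest value of each. Stfa3 had 14.4, 14.3 and 43.9 CPM in immobilized tibiae and 3.12, 5.14 and 10.3 CPM in control tibiae, for a log2 difference of 1.90 ± 0.20 (adjusted p = 0.00117). The family shares sequence, since 23.1% of the stretches of 50 bases in Stfa1 also occur in BC100530 and 14.7% of those in Stfa2 also occur in Stfa2l1. The split of reads among them is therefore uncertain, while the sum is less so. Cstb, which encodes the related inhibitor stefin B and lies on chromosome 10, was called too, at 54.3, 96.3 and 83.2 CPM in immobilized tibiae and 43.5, 52.2 and 49.8 CPM in control tibiae (0.64 ± 0.12, adjusted p = 0.0338). All 6 stefin A calls were kept without mouse 1 and without mouse 4, and none without mouse 6.

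Matrix genes were also among the calls, and 17 genes of extracellular matrix proteins were called higher, as grouped after their values were seen. The share of such genes among all genes tested was not counted, here or for the other groups made in this way. Other matrix genes, such as Bgn and Fn1, were not called. Postn, encoding periostin, a matricellular protein of periosteum, stood at 217, 521 and 482 CPM in immobilized tibiae and at 98.9, 176 and 215 CPM in control tibiae. The groups did not overlap, although immobilized mouse 1 exceeded control mouse 6 only narrowly (1.28 ± 0.11, adjusted p = 0.000546). Thbs2, encoding thrombospondin 2, which binds collagen and limits vessel growth, had 52.0, 67.2 and 70.6 CPM in immobilized tibiae and 23.7, 20.9 and 19.5 CPM in control tibiae. Every immobilized value was more than 2 times every control value (1.54 ± 0.14, adjusted p = 0.000809). Cpxm1, a secreted carboxypeptidase-like protein, had 20.7, 41.6 and 47.1 CPM in immobilized tibiae and 10.5, 13.5 and 14.8 CPM in control tibiae (1.43 ± 0.16, adjusted p = 0.00183), and DESeq2 called it in the all-strain fit as well. Mouse 1 had the smallest difference of the 3 mice in each of these genes.

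Ogn, encoding osteoglycin, a small leucine-rich proteoglycan, had 29.5, 57.8 and 77.1 CPM in immobilized tibiae and 19.4, 22.1 and 29.1 CPM in control tibiae. The lowest immobilized value lay just above the highest control value (1.14 ± 0.16, adjusted p = 0.0109). The chains of collagen VI, which forms microfibrils around cells, were called together. Col6a1 stood at 174, 261 and 226 CPM in immobilized tibiae and at 115, 109 and 107 CPM in control tibiae (0.97 ± 0.13, adjusted p = 0.00624), and Col6a2 and Col6a3 had log2 differences of 0.99 ± 0.15 and 0.80 ± 0.13. None of the 3 overlapped between limbs. Col6a3 was lost without mouse 1, and all 3 were lost without mouse 6. The basement membrane collagens Col4a1 and Col4a2 were called at 0.52 ± 0.10 and 0.64 ± 0.10.

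Enzymes that link and cut matrix were called beside these proteins. Lox, Loxl1 and Loxl2, the lysyl oxidases that cross-link collagen and elastin, had log2 differences of 0.86, 0.73 and 0.87. All 3 remained called without mouse 4, only Loxl1 without mouse 1, and none without mouse 6. Timp2, an inhibitor of matrix metalloproteinases, stood at 290, 352 and 353 CPM in immobilized tibiae and at 181, 189 and 195 CPM in control tibiae (0.80 ± 0.10, adjusted p = 0.00244), with no overlap. Mmp13, the collagenase of osteoblasts and hypertrophic cartilage, had 861, 1643 and 1005 CPM in immobilized tibiae and 575, 588 and 339 CPM in control tibiae. Its limbs did not overlap either, but it was not called (adjusted p = 0.068). Of the 14 matrix proteases and inhibitors listed, 3 were called higher (Mmp14, Timp2 and Htra1), against 0.862% of all genes, and 9 were higher without overlap, against 9.19%. DESeq2 called 7 of the 14 in the same libraries, with Mmp13, Mmp2, Adamts2 and Timp1 added.

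Of the 19 listed genes of small proteoglycans and fibrous tissue, 18 were tested in the 6-library fit and 3 were called, all higher (Col6a1, Col6a2 and Ogn), against 0.862% of all genes. DESeq2 called 5, with Col3a1 and Aspn added. Of the 19, 10 were higher without overlap, against 9.19% of all genes, and the median log2 difference was 0.694, with 0.422, 0.873 and 1.051 in mice 1, 4 and 6. Some of the largest differences did not pass. Col3a1, the collagen of soft fibrous tissue, stood at 338, 871 and 899 CPM in immobilized tibiae and at 92.8, 107 and 124 CPM in control tibiae. All 3 immobilized values were far above the controls, with the smallest gap in mouse 1, and the log2 difference was 2.58 ± 0.74 in the all-strain fit (unadjusted p = 0.00271), while the adjusted p in the 6-library fit was 0.063. Fmod, encoding fibromodulin, had 54.9, 150 and 160 CPM in immobilized tibiae and 49.9, 17.1 and 22.6 CPM in control tibiae. It hardly differed in mouse 1, and its adjusted p was 0.5. Aspn, encoding asporin, had 17.1, 42.2 and 71.5 CPM in immobilized tibiae and 10.8, 9.28 and 16 CPM in control tibiae, with no overlap and no call by edgeR (adjusted p = 0.137).

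**Figure D2:**
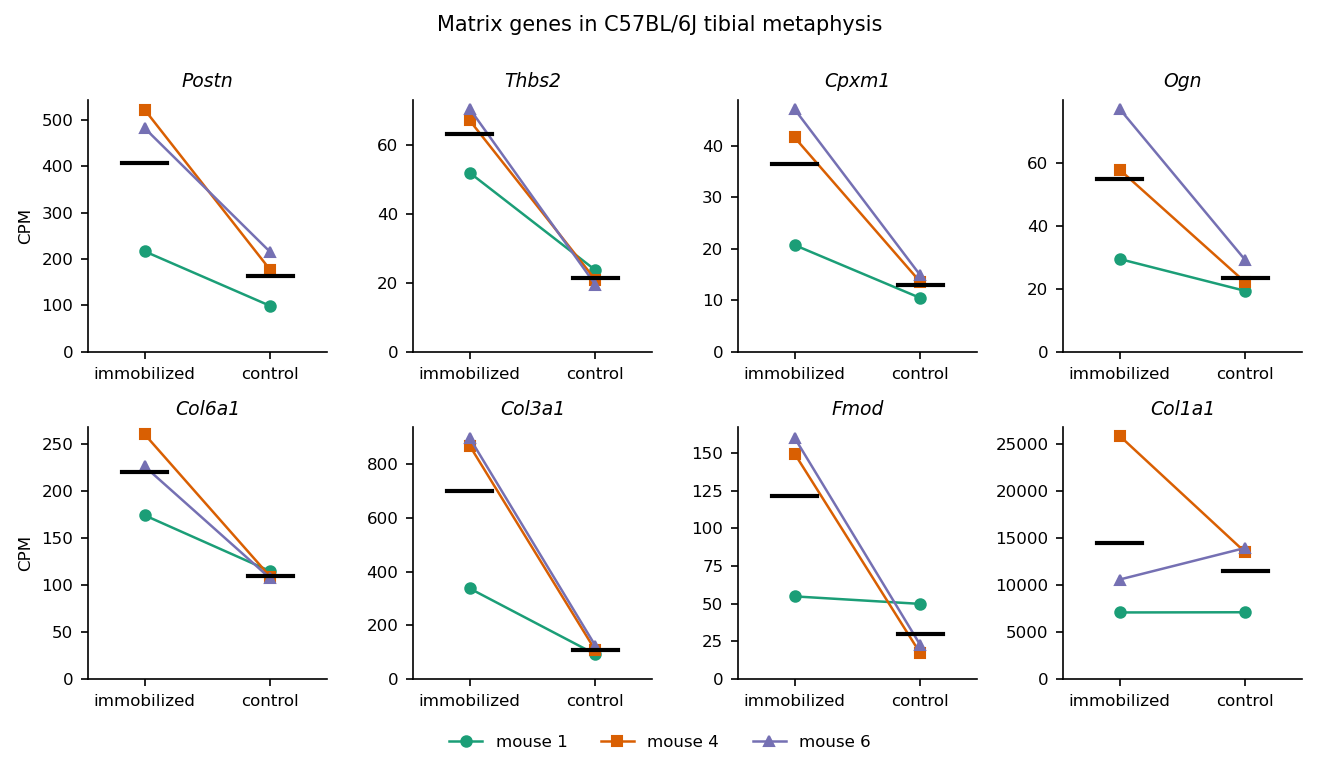
CPM (linear axis from 0) of 8 matrix genes in the immobilized (left) and control (right) tibia, with lines joining the limbs of mouse 1, 4 and 6 and black bars for means. The steepest lines of Col3a1 and Fmod are those of mice 4 and 6, and Col1a1 is above its control level in mouse 4 only, at 25910 CPM against 13500 CPM.

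Genes of bone formation had a list median without a common sign in the 3 mice. Col1a1, the main collagen of bone, stood at 7105, 25910 and 10610 CPM in the immobilized tibiae of mice 1, 4 and 6 and at 7126, 13500 and 13980 CPM in their control tibiae. The difference was close to 0 in mouse 1, upward in mouse 4 and downward in mouse 6, and the log2 difference of 0.18 ± 0.55 did not pass (unadjusted p = 0.753, all-strain fit). Bglap, encoding osteocalcin, had 429, 2098 and 626 CPM in immobilized tibiae and 501, 789 and 602 CPM in control tibiae, again with immobilized mouse 4 far above the rest. Of the 21 members of the osteoblast list, 1 was called, Postn, against 0.862% of all genes called higher. In all 3 mice, 7 were higher, against 19% of all genes, and 0 were lower, against 16.2%. Without overlap, 4 were higher, against 9.19% of all genes, and 0 were lower, against 6.35%. The list's median log2 difference was 0.047, 1.131 and -0.079 in mice 1, 4 and 6, and the median over the list in the all-strain fit was 0.376 with mouse 4 and -0.074 without it. Spp1 (osteopontin) and Ibsp (bone sialoprotein), which osteoblasts share with osteoclasts or hypertrophic cartilage, were the abundant members whose limbs did not overlap. Spp1 had 2128, 3479 and 2362 CPM in immobilized tibiae and 1728, 1678 and 1070 CPM in control tibiae, and Ibsp 603, 1131 and 794 CPM in immobilized tibiae and 482, 489 and 462 CPM in control tibiae. Neither was called, with adjusted p of 0.051 and 0.064.

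Osteocyte genes also varied by mouse. Sost, encoding the Wnt inhibitor sclerostin, whose level in osteocytes is known to respond to load, stood at 75.2, 37.6 and 15.2 CPM in immobilized tibiae and at 35.6, 23.6 and 17.2 CPM in control tibiae. It was higher in mice 1 and 4 and lower in mouse 6, and the log2 difference was 0.55 ± 0.74. Dmp1, a matrix phosphoprotein of osteocytes, had 185, 383 and 133 CPM in immobilized tibiae and 160, 166 and 130.1 CPM in control tibiae, where immobilized mouse 6 lay within the range of the controls. Ackr3, a chemokine receptor, was the only one of 12 osteocyte genes tested in the 6-library fit that was called (0.98 ± 0.19, adjusted p = 0.0364), against 0.862% of all genes called higher. The call was lost when any mouse was left out.

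Markers of tissues beside the trabecular bone differed between limbs too, with a sign that changed from mouse to mouse. The growth plate cartilage list had median log2 differences of -0.968, 1.785 and 0 in mice 1, 4 and 6, and summed to 1161, 3400 and 1122 CPM in immobilized tibiae and 1783, 1597 and 1605 CPM in control tibiae. Col10a1, the collagen of hypertrophic cartilage, had 3.11, 94.9 and 7.54 CPM in immobilized tibiae and 16.4, 1.76 and 1.46 CPM in control tibiae. The skeletal muscle list had medians of -1.189, 4.094 and 0.322. In mouse 4, Acta1, encoding skeletal muscle actin, stood at 218 CPM in the immobilized tibia and 7.40 CPM in the control tibia. None of the genes of either list was called by edgeR or DESeq2, and 0 had an unadjusted p under 0.05 in the 6-library fit. The osteoclast list had a median of 0.578 without mouse 4 and 0.464 with a muscle score as covariate, and the fibrous list 0.824 and 0.646. Among the 119 genes called higher, 54 had their largest difference in mouse 4.

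**Figure D3:**
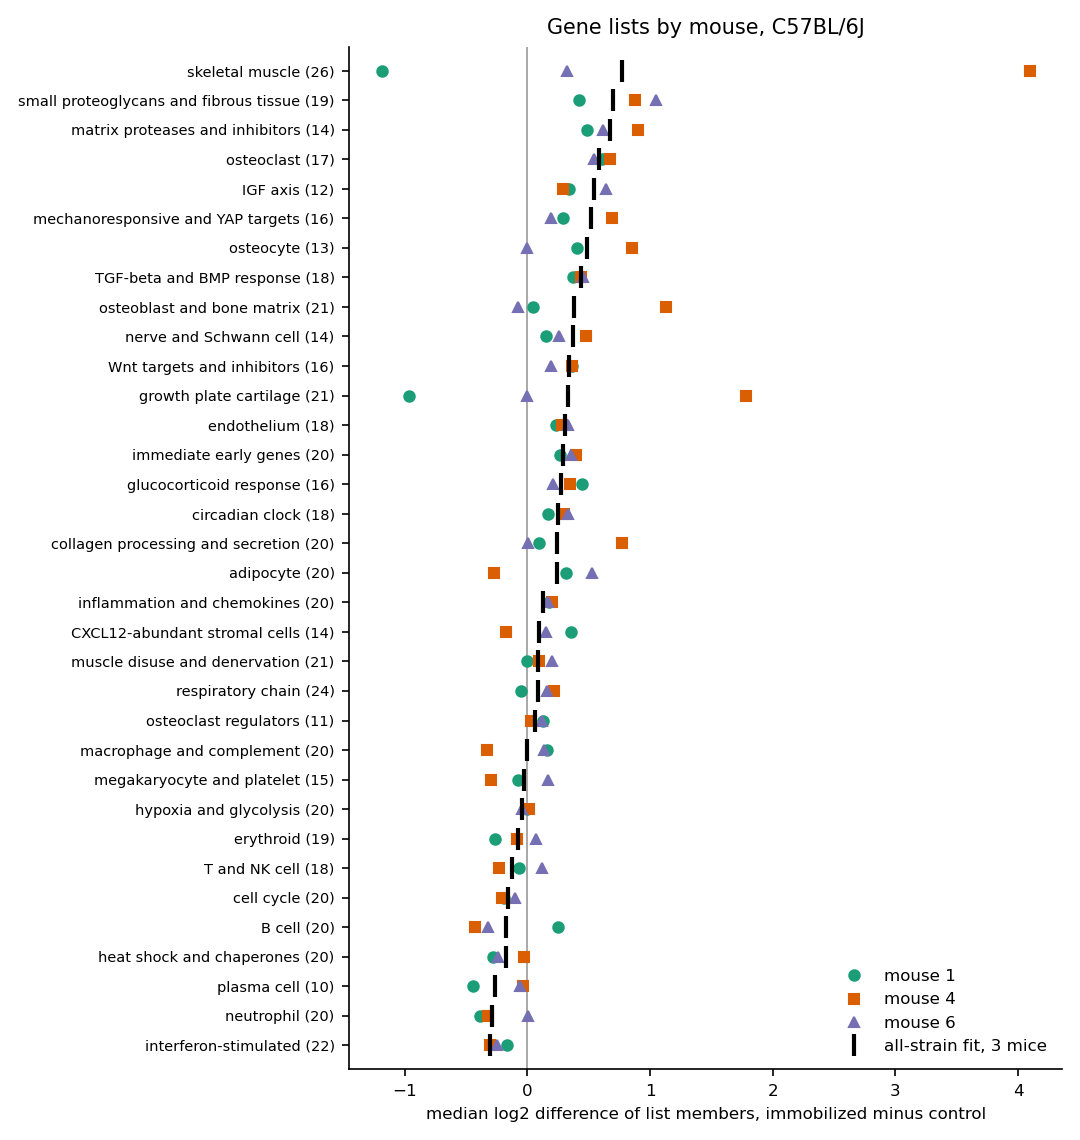
Median log2 difference, immobilized minus control, of the members of each of 34 gene lists (number of members tested in brackets), for mouse 1 (circle), mouse 4 (square) and mouse 6 (triangle), with the all-strain estimate as a black tick. The 3 mice lie close together for osteoclast, endothelium and cell cycle genes and far apart for skeletal muscle (-1.189 to 4.094), growth plate cartilage and osteoblast genes.

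Growth factors and their antagonists gave 11 calls, all higher, with log2 differences of 0.51 to 1.83, as grouped after their values were seen. Igf1, the growth factor of bone and muscle, stood at 43.2, 46.9 and 46.8 CPM in immobilized tibiae and at 31.1, 28.7 and 29.97 CPM in control tibiae, with tight groups that did not overlap. Its log2 difference was 0.60 ± 0.11 (adjusted p = 0.0354), and the call was lost when any mouse was left out and with DESeq2. Of the 12 IGF axis genes, 2 were called higher (Igf1 and Igfbp7), against 0.862% of all genes, and 7 lay higher without overlap, against 9.19%, Igfbp4 and Igf2 among them. Igf1r, the receptor, ran the other way without overlap, at 94.0, 89.4 and 102 CPM in immobilized tibiae and 106, 113 and 112 CPM in control tibiae, and was not called. Dkk3, a secreted protein of the Dickkopf family, had 13.7, 25.7 and 26.5 CPM in immobilized tibiae and 7.49, 7.27 and 5.97 CPM in control tibiae (1.61 ± 0.24, adjusted p = 0.0135). It was the only call among the 15 listed Wnt genes in the 6-library fit, against 0.862% of all genes called higher. Frzb, a secreted Wnt antagonist outside the list and named after its values were seen, was called too, at 10.2, 12.7 and 3.32 CPM in immobilized tibiae and 3.90, 3.14 and 0.582 CPM in control tibiae (1.83 ± 0.30, adjusted p = 0.0169). It was higher in each mouse, and the limbs overlapped, since the immobilized value of mouse 6 lay below the control value of mouse 1. Tgfb3, encoding a TGF-beta ligand, and Id3, a target of BMP signals, were called at 0.89 ± 0.16 and 0.69 ± 0.12, against 0.862% of all genes, and were the only calls among the 18 listed TGF-beta and BMP genes, of which 5 lay higher without overlap, against 9.19%.

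The zinc-binding metallothioneins Mt1, Mt2 and Mt3 were each called, and are grouped here after their values were seen. Mt1 had 81.4, 114 and 98.8 CPM in immobilized tibiae and 59.0, 64.5 and 53.3 CPM in control tibiae (0.71 ± 0.11, adjusted p = 0.013). Mt2 had 42.5, 55.9 and 34.4 CPM in immobilized tibiae and 28.2, 20.4 and 15.7 CPM in control tibiae (1.04 ± 0.16, adjusted p = 0.0163). Mt3 had 12.6, 33.1 and 14.7 CPM in immobilized tibiae and 4.99, 12.3 and 4.37 CPM in control tibiae (1.48 ± 0.18, adjusted p = 0.00328). The limbs of none of the 3 overlapped. All 3 calls were kept without mouse 1 and without mouse 4, and none without mouse 6. Mt1 and Mt2 respond to glucocorticoids as well as to metals. Of the 16 glucocorticoid genes listed, only they and Errfi1 were called, against 0.862% of all genes called higher. Of the 16, 8 were higher in all 3 mice, against 19% of all genes, and 1 was lower in all 3, against 16.2%. Without overlap, 4 were higher, against 9.19% of all genes, and the median log2 difference was 0.276. The members Fkbp5 and Tsc22d3 had log2 differences of -0.11 ± 0.17 and -0.04 ± 0.23 in the all-strain fit.

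H1f0, encoding the linker histone of resting and differentiated cells, had the smallest p of the genes above 5 CPM that were higher in all mice, apart from Gm28438. It stood at 174, 142 and 141 CPM in immobilized tibiae and at 103, 90.8 and 80.0 CPM in control tibiae. The limbs did not overlap, and the difference was of like size in each mouse. The log2 difference was 0.74 ± 0.15 in the all-strain fit, where the unadjusted p was 0.000108 and the adjusted p 0.456, and 0.72 ± 0.09 in the 6-library fit (adjusted p = 0.0049). Among the 19 mice of the other strains, H1f0 was higher in the cast limb of 18. Other genes with small p in the all-strain fit that were higher in all 3 mice were Hacd1 (0.75 ± 0.16), the complement inhibitor Cd59a (0.79 ± 0.18), Tmem98, Mdfi, Rundc3a, Ctnnbip1 and Tmem158, none of which passed its adjustment. In the other 19 mice these were higher in the cast limb of 11 (Tmem158) to 16 (Rundc3a and Ctnnbip1), with Mdfi in 12. Cpxm1 and Stfa1 were also among the 10 smallest p. Of these 19 mice, Cpxm1 was higher in 12 and lower in 7. Stfa1 was higher in 10 and lower in 2, with no difference in the rest. Among genes above 5 CPM that were lower in all 3 mice, the smallest p was that of Spice1, a centriole protein, at 7.06, 6.89 and 4.48 CPM in immobilized tibiae and 14.04, 10.9 and 13.4 CPM in control tibiae. Its limbs did not overlap, its log2 difference was -1.07 ± 0.22 (unadjusted p = 0.000143), and it was lower in the cast limb of 17 of the other 19 mice. The mitochondrial tyrosyl-tRNA synthetase Yars2 (-0.81 ± 0.21) and the chaperones Hyou1 (-0.46 ± 0.12) and Hsph1 (-0.70 ± 0.20) were also among the 10 smallest p. Each was without overlap between limbs and lower in 16 or 17 of the other 19 mice, and none passed its adjustment. Of the rest of these 10, Zc3h13 and Gm5601 were lower in 14 of the 19 mice, Ass1 and Stx3 in 13 and Gm28437 in 12. Gm9830 was lower in 6 of them and higher in 13.

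Fewer genes were lower. The 23 genes called lower had a median log2 difference of -0.62, and 10 of them are genes of myeloid or innate immune cells, as grouped after their values were seen. Hdc, the enzyme that makes histamine, stood at 84.5, 113 and 119 CPM in immobilized tibiae and at 166, 174 and 177 CPM in control tibiae, with a wide gap between the limbs (-0.73 ± 0.11, adjusted p = 0.00991). F13a1, the coagulation factor XIII subunit of monocytes and platelets, had 245, 211 and 333 CPM in immobilized tibiae and 331, 393 and 512 CPM in control tibiae. Immobilized mouse 6 lay just above control mouse 1, so the limbs overlapped, but the gene was lower in each mouse (-0.66 ± 0.11, adjusted p = 0.0163). C3, the central complement component, had 482, 455 and 599.5 CPM in immobilized tibiae and 697, 773 and 761 CPM in control tibiae (-0.56 ± 0.11, adjusted p = 0.0368). Without mouse 1, 1 of the 10 genes remained called (F13a1), without mouse 4, 5 did, and without mouse 6 none did.

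Ass1, which makes the precursor of arginine, had 17.99, 19.9 and 26.2 CPM in immobilized tibiae and 25.7, 41.6 and 52.2 CPM in control tibiae. It was lower in every mouse, and the values of immobilized mouse 6 and control mouse 1 crossed (-0.88 ± 0.14, adjusted p = 0.0153). A pair of the lower calls had no count in any immobilized tibia. Gm45234 had 3.59, 3.14 and 7.27 CPM in control tibiae and Gm18852 2.65, 1.38 and 2.18 CPM. A count of 0 allows up to 3 counts, or 0.282 to 0.39 CPM, in each immobilized library, so that the means were at least 13.3-fold and 5.89-fold lower, for counting error only. Gm8399, a processed pseudogene on chromosome 13 named here after its values were seen, had the second smallest adjusted p of the all-strain fit, 0.17, at 0.0942, 0.260 and 0.256 CPM in immobilized tibiae and 1.87, 1.63 and 1.60 CPM in control tibiae.

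No cell cycle gene was called by edgeR, where 8 had an unadjusted p under 0.05, and DESeq2 called Mki67 and Top2a in the 6-library fit. Of 20 members, 16 were lower in all 3 mice, against 16.2% of all genes, and 12 did not overlap between limbs, against 6.35%. Mki67, the proliferation marker, stood at 991, 873 and 1016 CPM in immobilized tibiae and at 1288, 1234 and 1171 CPM in control tibiae. Top2a, the topoisomerase of dividing cells, had 428, 473 and 498 CPM in immobilized tibiae and 559, 614 and 643 CPM in control tibiae. The limbs of neither overlapped, the list's medians were -0.193, -0.209 and -0.101 in mice 1, 4 and 6, and the smallest adjusted p, that of Top2a in the 6-library fit, was 0.073. The mitotic checkpoint gene Kntc1 and the DNA damage mediator Mdc1, which are in no list, were called lower at -0.55 ± 0.10 and -0.50 ± 0.10.

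Among interferon-stimulated genes, 1 was called lower, against 0.167% of all genes, and the others did not pass. Of 22 members, 13 were lower in all 3 mice, against 16.2% of all genes, and 11 did not overlap, against 6.35%, and the median log2 difference was -0.309. Oas3, an antiviral oligoadenylate synthetase, was the only call, at 37.2, 39.0 and 37.1 CPM in immobilized tibiae and 55.5, 59.1 and 51.4 CPM in control tibiae (-0.56 ± 0.10, adjusted p = 0.0294). It was lost when any mouse was left out and with DESeq2.

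Gm28438 was the only gene called in the all-strain fit. It is an unprocessed pseudogene of 345 bases on the minus strand of chromosome 1 (GRCm38, chr1:24612775-24613119), inside a nuclear copy of mitochondrial DNA. It stood at 64.1, 102 and 108 CPM in the immobilized tibiae of mice 1, 4 and 6, from 681, 783 and 848 counts, and at 1.09, 1.38 and 4.22 CPM in their control tibiae, from 7, 11 and 29 counts. The gap between the limbs was wide in each mouse. The log2 difference over the 3 mice was 5.47 ± 0.65 (adjusted p = 0.00246) in the all-strain fit and 5.39 ± 0.25 (adjusted p = 0.000127) in the 6-library fit. Both SE values come from the fitted models. That of the all-strain fit takes its spread from the mice of all strains except A/J, whose single pair leaves no residual. In the all-strain fit the adjusted p became 0.0683 without mouse 1 and 0.1 without mouse 4, with log2 differences of 5.34 and 5.13.

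The pseudogene copies mt-Nd3, the mitochondrial gene of a subunit of respiratory complex I, and the opening 60 bases of both transcripts are shown because reads from them can hardly be told apart. The capital marks the single base that differs in the whole overlap, T3C, counted from 1 at the first base of each transcript, with the base of mt-Nd3 given first.
mt-Nd3: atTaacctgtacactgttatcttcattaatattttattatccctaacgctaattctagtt
Gm28438: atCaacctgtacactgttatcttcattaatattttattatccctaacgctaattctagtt
With 1 mismatch in 345 bases, 312 of the 315 stretches of 31 bases in Gm28438 (99%) also occur in mt-Nd3. Both sequences come from the GENCODE M21 transcripts. The assignment of reads between them is therefore uncertain, and Gm28438 counts need not come from the nuclear locus.

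The neighbouring copies in the same block did not share this pattern. Gm28437, Gm10925 and Gm28661 copy mt-Co3, mt-Atp6 and mt-Co2 without a mismatch. Gm28437 had 2.83, 10.8 and 48.2 CPM in immobilized tibiae and 24.8, 74.9 and 70.0 CPM in control tibiae, lower in every mouse. Gm10925 had 458, 151 and 364 CPM in immobilized tibiae and 445, 888 and 1343 CPM in control tibiae, lower in mice 4 and 6. Gm28661 had 9.80, 2.21 and 96.1 CPM in immobilized tibiae and 169, 649 and 46.9 CPM in control tibiae, lower in mice 1 and 4. None of the 3 was called in either fit.

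The mitochondrial genes that these copies resemble were not called in either fit. mt-Nd3 stood at 118, 248 and 145 CPM in immobilized tibiae and at 219, 179 and 211 CPM in control tibiae, lower in mice 1 and 6 and higher in mouse 4, and was not called. mt-Co3 had 2422, 3427 and 3010 CPM in immobilized tibiae and 2432, 2322 and 2363 CPM in control tibiae. Its difference was close to 0 in mouse 1 and upward in mice 4 and 6. mt-Atp6 had 1689, 2812 and 2142 CPM in immobilized tibiae and 1456, 1011 and 559.8 CPM in control tibiae. mt-Co2 had 2924, 4250 and 3613 CPM in immobilized tibiae and 2631, 2196 and 2803 CPM in control tibiae. Both had higher values in all 3 mice, without overlap between limbs. Counts of all mitochondrial genes made up 2.26%, 2.84% and 2.43% of the immobilized libraries and 2.05%, 1.98% and 2.05% of the control libraries.

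**Figure D4:**
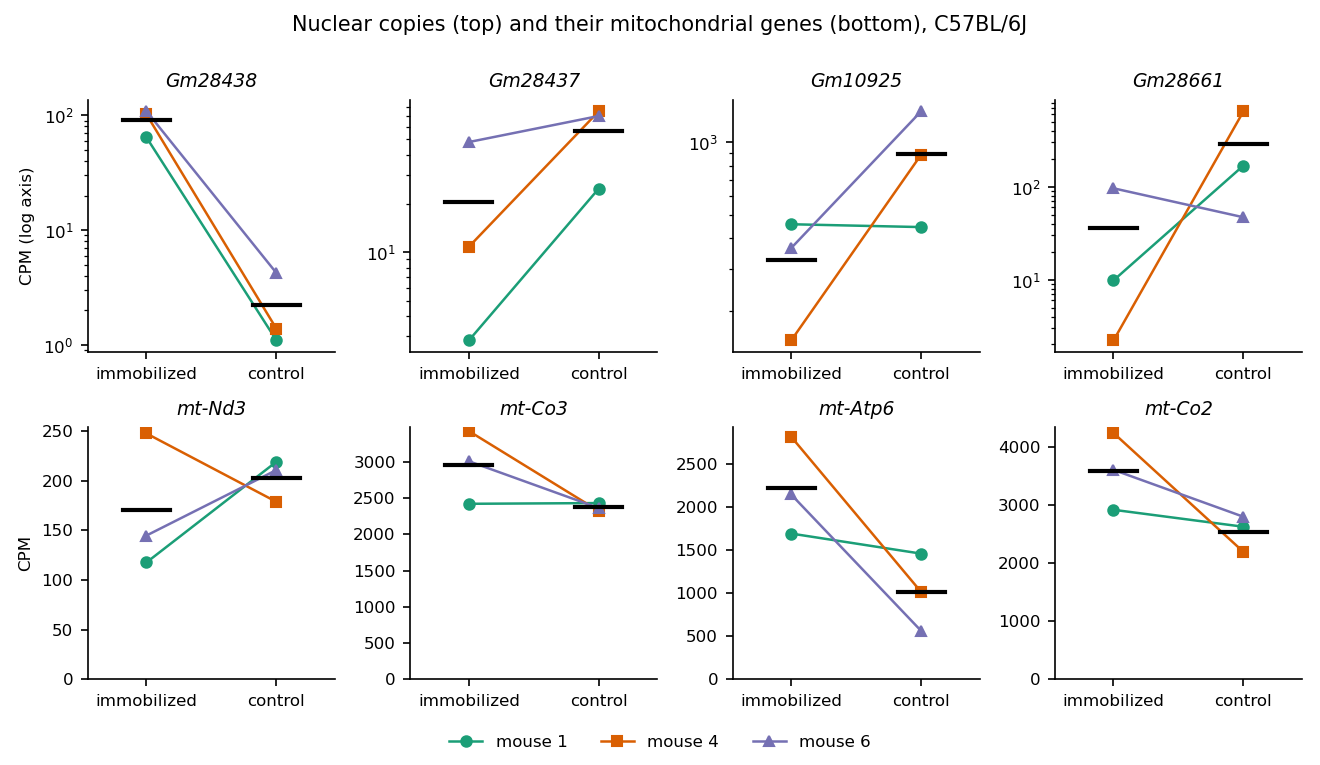
CPM of 4 nuclear copies of mitochondrial genes (upper row, log axes) and of the mitochondrial genes they copy (lower row, linear axes from 0) in the immobilized (left) and control (right) tibia of mouse 1, 4 and 6, with black bars for means. Gm28438 lies between 64.1 and 108 CPM in immobilized limbs and between 1.09 and 4.22 CPM in control limbs, while its neighbour Gm28437 runs the other way in all 3 mice.

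The cast effect in C57BL/6J was then compared with the mean effect of the other 7 strains in the same fit. The difference passed the adjustment for 1 of 16882 genes (0.00592%), Gm28438. Its log2 effect was 5.47 ± 0.65 in C57BL/6J and -0.31 ± 0.21 in the mean of the other strains, a difference of 5.78 ± 0.68 (adjusted p = 0.00219). Without mouse 1 and without mouse 4 no gene was called for the difference, and 519 and 406 genes had an unadjusted p under 0.05. In the 38 libraries of the other strains Gm28438 ranged from 11 to 1020 CPM, and none lay below the highest C57BL/6J control. Among their 19 mice it was higher in the cast limb of 8 and lower in that of 11. The next smallest adjusted p of the difference was 0.246. At an unadjusted p of 0.05 the difference passed for 552 genes (3.27%), 373 of them higher in C57BL/6J (2.21%) and 179 lower (1.06%).

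Most genes called in the 6 C57BL/6J libraries had the same sign in the other strains. Of the 119 genes called higher, 112 (94.1%) had a mean effect above 0 in the other strains, and 36 (30.3%) were called higher there, against 3.64% of all genes. Those 36 are 5.86% of the 614 genes called higher in the mean of the other strains. Of the 23 genes called lower, 19 had a mean effect below 0 in the other strains and 1 was called lower there, against 2.64% of all genes. The share of all genes with each sign was not counted. Their median effect in the other strains was 0.008, near 0, so either sign is common among all genes. Ctsk and Acp5 were among the genes with the same sign. The log2 effect on Ctsk was 1.55 in C57BL/6J, against 1.16 in the mean of the other strains (unadjusted p = 0.516 for the difference), and that on Acp5 was 1.01 in C57BL/6J, against 0.75. Among the other 19 mice, both were higher in the cast limb of 16. The stefin A gene Stfa2 had a log2 effect of 1.53 in C57BL/6J, against 2.03 in the mean of the other strains, and Stfa3 1.91 against 2.23, differences of -0.50 ± 0.51 and -0.32 ± 0.64.

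No matrix gene passed the adjusted test of the difference between C57BL/6J and the other strains. Of the 142 called genes, 23 (16.2%) had an unadjusted p under 0.05 for the difference, against 3.27% of all genes, and 6 of the 17 matrix protein genes were among them. These genes were chosen for their C57BL/6J effect, which the difference contains, so nothing is read from that excess, and the values below are a description. Thbs2 had a log2 effect of 1.56 in C57BL/6J and 0.16 in the mean of the other strains (unadjusted p = 0.0234), and was higher in 10 of their 19 mice. Ogn had 1.14 in C57BL/6J and -0.06 in the other strains (unadjusted p = 0.00533), Cpxm1 1.43 and 0.32 (unadjusted p = 0.00352), Col8a2 1.83 and -0.34 (unadjusted p = 0.00521), and Spock2 1.64 and -0.26 (unadjusted p = 0.00316). Tnn, encoding the periosteal tenascin W, was not called but had a like pattern, with 2.09 in C57BL/6J and 0.02 in the other strains (unadjusted p = 0.024). Among lower genes, Ass1 had -0.86 in C57BL/6J and -0.01 in the other strains (unadjusted p = 0.00307), and F13a1 -0.65 and 0.08 (unadjusted p = 0.0189). Gm18852, with no count in any immobilized C57BL/6J tibia, had 0.375 ± 0.451 in the other strains (unadjusted p = 0.000468 for the difference). It was higher in the cast limb of 8 of their 19 mice and lower in that of 8, and did not pass after adjustment.

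**Figure D5:**
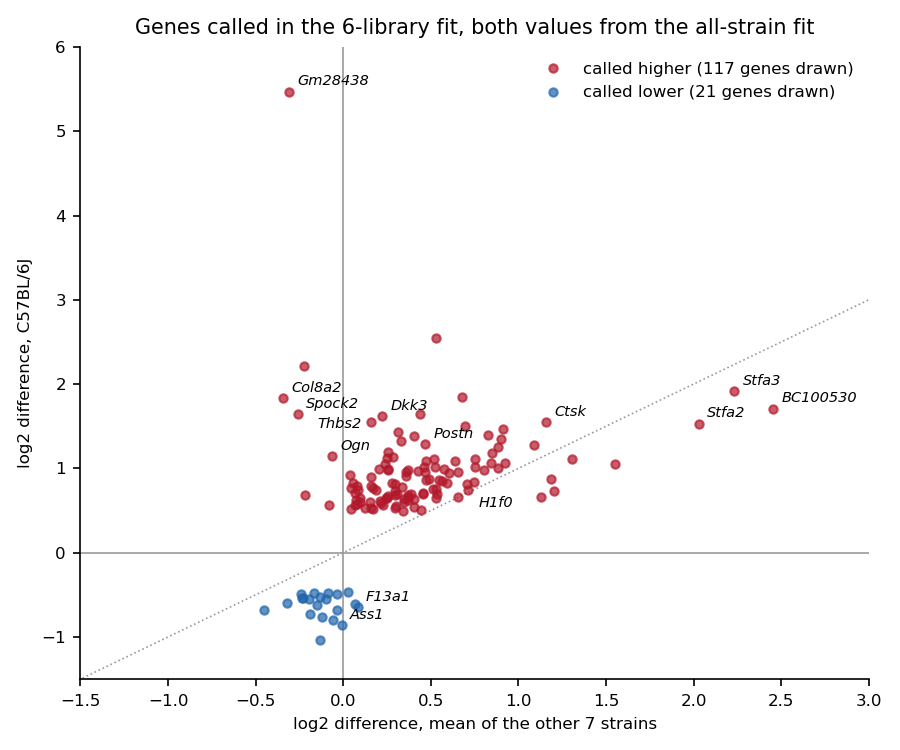
Log2 difference in C57BL/6J (vertical) against the mean of the other 7 strains (horizontal), both from the all-strain fit, for 117 genes called higher (red) and 21 called lower (blue) in the 6-library fit. The dotted line marks equal effects. Most red points lie right of 0 and above the line, and among the genes drawn Gm28438 stands alone at 5.47 against -0.31. Not drawn are 4 called genes. Stfa1 and Stfa2l1 had no usable estimate in the other strains, and Gm45234 and Gm18852 had no count in any immobilized C57BL/6J tibia.

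Read from the other side, genes called in the mean of the other strains were shared in part. Of the 614 called higher there, 302 (49.2%) were higher in all 3 C57BL/6J mice, against 19% of all genes, with a median log2 difference of 0.24 in C57BL/6J and 0.391 in the other strains. Of the 446 called lower there, 114 (25.6%) were lower in all 3 C57BL/6J mice, against 16.2% of all genes, and 41 (9.19%) were higher in all 3. Their median was -0.07 in C57BL/6J and -0.623 in the other strains. Of the 34 lists, skeletal muscle had the largest median difference between C57BL/6J and the other strains, with a list median of 0.77 in C57BL/6J and -2.338 in the other strains. Within C57BL/6J it was -1.189 in mouse 1 and 4.094 in mouse 4. For 7 of the 26 muscle genes the difference had an unadjusted p under 0.05, all higher in C57BL/6J, and none passed after adjustment. Col1a1 had 0.18 in C57BL/6J and 1.21 in the other strains (unadjusted p = 0.105), and Bcan, encoding the proteoglycan brevican, 0.47 and 2.61 (unadjusted p = 0.00464), and neither passed after adjustment.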

How the data were processed

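RNA was extracted from homogenized frozen tibial metaphyses (RNeasy Plus Mini) and made into libraries with a TruSeq Stranded mRNA kit, per the labels. The authors deposited 1 table of raw counts per gene and library. Tools and build named in the submitters' processing notes are featureCounts, DESeq2 and mm10, and for the aligner, annotation and strand setting the name is not given in the sources used here. Counts were therefore not corrected for reads shared by near copies, overlapping genes or antisense partners.

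All columns were matched to samples by name. Of 32544 rows, 7355 held no count, 27 carried a date in place of a symbol and are not named, and 31394 matched GENCODE M21 (GRCm38). Libraries needed at least 1e+06 counts. Of the A/J controls, 2 held 2335 and 50 counts and were left out with their partners, which left 44 libraries. Genes were filtered with filterByExpr (minimum count 10). CPM values were scaled by TMM factors and given as they stand, while log2 values per mouse carry a prior count of 2. The edgeR 4.0.16 quasi-likelihood test (R 4.3.3, robust, two-sided, Benjamini-Hochberg adjustment over all genes tested, FDR 0.05) was fitted with a term for each mouse and a limb term for each strain. It gave the C57BL/6J effect and its difference from the mean of the other 7 strains. A second model fitted only the 6 C57BL/6J libraries with mouse and limb terms. Its calls were chosen for description after their number was seen. Alternatives used RLE scaling, no filter, DESeq2 1.42.0, no mouse term, all 48 libraries, a skeletal muscle score (mean log2 CPM of its list) as covariate, the mean of 6 other strains without A/J, and each mouse left out. The pairing follows from the design, since both limbs come from 1 animal, and the deviations of the limbs from their group means correlated across genes at 0.217, 0.04 and 0.199 in mice 1, 4 and 6. The steps were tested on simulated data.

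Named genes were the genes past the FDR, the 10 genes per direction with the smallest unadjusted p and 1 sign in all mice at a mean of at least 5 CPM, members of 34 gene lists (616 listed, 613 tested) and a short fixed set. The comparison, the members and the lists were chosen with earlier results of these data known, so no list is independent evidence.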

Additional observations from a re-analysis of the deposited data

Results flagged for a closer look

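Gm28438, the pseudogene copy of mt-Nd3 on chromosome 1, was flagged because its effect in C57BL/6J differed from the mean of the other strains by a test of the difference itself, at 5.78 ± 0.68 on the log2 scale (edgeR, adjusted p = 0.00219). The gene stood at 64.1, 102 and 108 CPM in immobilized C57BL/6J tibiae and at 1.09, 1.38 and 4.22 CPM in control tibiae. In the other strains, 8 of 19 mice were higher in the immobilized limb and 11 lower, over a range of 11 to 1020 CPM.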

How the results depend on the processing

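The all-strain fit called 1 gene, Gm28438, in C57BL/6J. It called 1 with RLE scaling, without the filter and with the muscle covariate, 5 with DESeq2 (Cpxm1, Gm28438, Gm45234, Gm8399 and H1f0), 2 without the pairing by mouse (no replicate block) and 2 with all 48 libraries (Gm28438 and Gm8399 in both), and 142 when only the 6 C57BL/6J libraries were fitted. Leaving out 1 mouse gave 0 to 1 calls, 0 without mouse 1 or mouse 4, where 743 and 479 genes had an unadjusted p under 0.05. The adjusted p of Gm28438 by edgeR was 0.0683 without mouse 1, 0.1 without mouse 4 and 0.0239 without mouse 6, and its log2 difference ran from 5.13 to 6.04 over these. The difference from the other strains was called for 1 gene, Gm28438, under every alternative except the omission of mouse 1 or mouse 4, which gave 0 calls, so the range was 0 to 1. The 142 calls of the 6-library fit became 137 with RLE scaling, 153 with DESeq2 (106 of them among the 142), 608 without the filter (396 higher and 212 lower), 1 without the pairing by mouse (no replicate block), and 2 to 216 with 1 mouse left out. Of the 142, 78 were kept without mouse 1, 110 without mouse 4 and 1 without mouse 6, and none was called under all 7 of these alternatives, which were chosen after seeing the data. With 1 mouse left out, 1 residual degree of freedom remains in that fit.

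No result reversed its sign as a call. Of the list medians over the alternatives, 316 moved by less than the spread between mice and 24 by more, 9 of them with the muscle covariate, 5 without mouse 1 and 3 each without mouse 4 and without mouse 6. Without mouse 1 growth plate cartilage went to 1.321 and skeletal muscle to 2.029. With the muscle covariate these went to 0.146 and 0.21, and the osteoclast regulators to -0.04 (0.06 without it). Without mouse 4 the osteoblast list went to -0.074 (0.376 with it), growth plate cartilage to -0.637 (0.331) and skeletal muscle to -0.479 (0.77), while the osteoclast list gave 0.578 (0.582). The cause was not tested. Between 6294157 and 9954067 counts per library limit what can be said of genes near 1 CPM, such as Gm8399.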

Other observations

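No vessel gene was called by edgeR or DESeq2 in the 6-library fit, where 12 had an unadjusted p under 0.05. Of 18 endothelial genes, 12 were higher in all 3 mice, against 19% of all genes, and 5 were higher without overlap, against 9.19%. Vwf, encoding von Willebrand factor, was lower in all 3 mice, at 199, 139 and 132 CPM in immobilized tibiae and 258, 213 and 153 CPM in control tibiae. Tek, the angiopoietin receptor of endothelium, stood at 28.6, 25.6 and 23.4 CPM in immobilized tibiae and at 19.97, 17.1 and 15.6 CPM in control tibiae, without overlap. Its log2 difference was 0.56 ± 0.25 in C57BL/6J and -0.13 in the mean of the other strains (edgeR, unadjusted p = 0.02 for the difference, not passed after adjustment). Plvap, a protein of fenestrated endothelium, had 81.6, 76.4 and 70.6 CPM in immobilized tibiae and 61.2, 60.3 and 47.9 CPM in control tibiae, again without overlap. Pdgfrb, the receptor of pericytes and stromal cells, was called in the 6-library fit, at 159, 139.6 and 124 CPM in immobilized tibiae and 101, 104 and 81.8 CPM in control tibiae (0.55 ± 0.10, adjusted p = 0.0241 by edgeR). The call was lost without mouse 1 and without mouse 6.

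Of 18 clock genes, 1 was called, against 0.862% of all genes called higher. Bhlhe40, a repressor of clock genes that also responds to many stimuli, had 79.2, 72.9 and 55.4 CPM in immobilized tibiae and 52.3, 45.9 and 34.9 CPM in control tibiae (0.63 ± 0.10, adjusted p = 0.0138 by edgeR in the 6-library fit), with no overlap between limbs. Dbp and Nr1d1, outputs of the clock, did not overlap either and were not called, at 24.2, 34.2 and 27.0 CPM for Dbp in immobilized tibiae and 21.8, 18.9 and 16.4 CPM in control tibiae. The times at which the limbs were taken are not analysed here. Immediate early genes had no call by edgeR or DESeq2 among 17 tested in that fit, and 7 had an unadjusted p under 0.05. Fos stood at 26.4, 18.1 and 19.1 CPM in immobilized tibiae and at 10.6, 12.3 and 14.3 CPM in control tibiae. Fabp4, the fatty acid carrier of adipocytes and endothelium, had 231, 184 and 279.7 CPM in immobilized tibiae and 157, 152 and 143 CPM in control tibiae, while Adipoq, the adipocyte hormone, overlapped between limbs. No neutrophil, erythroid or B cell gene of the lists was called by edgeR in the 6-library fit, where 11, 4 and 6 had an unadjusted p under 0.05. DESeq2 called 4 neutrophil genes, Mpo, Elane, Csf3r and Fcnb. The neutrophil list summed to 34890, 47230 and 62690 CPM in immobilized tibiae and to 46620, 55920 and 57490 CPM in control tibiae, lower in mice 1 and 4 and higher in mouse 6.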
